A study of Mus musculus with 123 samples.

Results

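The genes described here encode chaperones and folding enzymes of the endoplasmic reticulum, the compartment in which secreted and membrane proteins are folded. They were measured in whole lung of sensitized and naive mice over a week of sampling in a mouse model of asthma. The members were taken from a list of 10 gene symbols (Hspa5, Hsp90b1, Hyou1, Dnajb9, Dnajb11, Sdf2l1, Pdia4, Creld2, Manf and Calr) through the array's gene annotation, with the probe set of the highest mean standing for each gene. Of these, 9 were measured among 13053 genes with a single symbol. Calr was not analysed here, because no probe set carried its symbol in the annotation used.

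Both arms were of the BALB/c background. The 62 mice sensitized with ovalbumin (OVA), a protein of hen's egg used as a model allergen, were killed at 0, 2, 6, 24, 48, 72, 96 and 168 h, 8 at each time except 6 at 24 h. The 61 naive mice, without sensitization, were killed at the same times, 8 at each time except 7 at 2, 48 and 96 h. The design text states an OVA challenge for both arms, whereas naive sample titles read PBS, and the labels do not settle which of these the naive mice were given. The labels give no age, sex or route of challenge. Each array held total RNA of 1 mouse, and its values are log2 intensities normalized by the authors, which place each gene on its own scale. Levels are therefore compared between groups for a gene and never between genes. In whole lung, fewer cells of a type and less RNA per cell cannot be told apart. Defining markers of lung were bright on all arrays: the alveolar type II list (8 genes, surfactant genes among them) averaged 13.52 to 13.88 in sensitized mice and 13.69 to 13.89 in naive mice. On 9 arrays, 3 sensitized and 6 naive, squamous epithelial or skeletal muscle genes were far above the other arrays.

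As background, BiP (Hspa5) binds unfolded chains that enter the endoplasmic reticulum and also holds its stress sensors inactive. When unfolded protein accumulates, the sensor IRE1 splices the RNA of the transcription factor XBP1 and the sensor ATF6 is cut into an active factor, and both factors raise chaperone genes through promoter sequences called endoplasmic reticulum stress elements. This unfolded protein response is a normal feature of cells that secrete heavily, and in lung such cells include mucus-producing goblet cells, alveolar type II cells and, after immunization, plasma cells.

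The promoter windows of RefSeq (mouse assembly GRCm38.p6, 250 bases before to 50 after the gene start) were searched on both strands for these elements, and 7 of the 9 members had a window, Hyou1 and Manf being the exceptions. The element searched as ERSE was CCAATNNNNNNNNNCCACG, which occurred in 39 of 32851 windows of all genes (0.119%). It was found in 3 of the 7 members, which were Hspa5, Hsp90b1 and Creld2. These matches are printed with their surroundings because they show the letters that the search found; capitals mark the fixed letters of the element, on either strand. The Hspa5 stretch lies at chr2:34772015-34772053 on the plus strand, the Hsp90b1 stretch at chr10:86705523-86705666 on the minus strand and the Creld2 stretch at chr15:88819510-88819548 on the plus strand.
Hspa5: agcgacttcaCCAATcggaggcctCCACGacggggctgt
Hsp90b1: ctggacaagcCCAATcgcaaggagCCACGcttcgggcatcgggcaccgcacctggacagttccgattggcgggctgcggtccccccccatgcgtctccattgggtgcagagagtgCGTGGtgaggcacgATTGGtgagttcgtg
Creld2: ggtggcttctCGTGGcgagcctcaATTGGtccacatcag
The match in Hspa5 spanned positions -65 to -47 relative to the gene start. Hsp90b1 held 2 matches, at -212 to -194 and, on the opposite strand, at -107 to -89. Creld2 held 1 on the opposite strand, at -126 to -108.

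A shorter form, ERSE-II, was searched as ATTGGNCCACG and occurred in 0.0365% of all windows. Among the members it was found only in Dnajb11, just after the gene start. The core of the unfolded protein response element, TGACGTGG, occurred in 0.676% of all windows and in 0 of the 7 members. Dnajb9, Sdf2l1 and Pdia4 held no exact match to either form of the stress element in this window. Sites that differ from the fixed letters were not searched for, so imperfect elements in these or other members are not covered. Of these, Dnajb9 had the smallest peak difference of the 9 members, and Sdf2l1 and Pdia4 had the largest. The stretches of Sdf2l1 and Pdia4 are shown for comparison with capitals on every CCAAT and CCACG of either strand. Those 5-letter pieces are common, CCAAT occurring in 37.4% and CCACG in 32.8% of all windows. Within the 250 bases before the start alone, the shares were 33.8% and 28.3%. The ERSE holds both, so these counts overlap with the counts of the longer motif. The Pdia4 stretch holds CCAAT but no CCACG, the 1 CCACG match of its window not lying within the stretch. The Sdf2l1 stretch is chr16:17132384-17132633 on the minus strand and the Pdia4 stretch chr6:47813513-47813762 on the minus strand, each the 250 bases before the gene start.
Sdf2l1: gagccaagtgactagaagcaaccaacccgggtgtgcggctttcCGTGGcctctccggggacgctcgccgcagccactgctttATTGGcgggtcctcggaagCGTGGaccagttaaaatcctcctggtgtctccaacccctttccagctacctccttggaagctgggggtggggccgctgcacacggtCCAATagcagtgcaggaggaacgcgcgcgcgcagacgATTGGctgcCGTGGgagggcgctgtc
Pdia4: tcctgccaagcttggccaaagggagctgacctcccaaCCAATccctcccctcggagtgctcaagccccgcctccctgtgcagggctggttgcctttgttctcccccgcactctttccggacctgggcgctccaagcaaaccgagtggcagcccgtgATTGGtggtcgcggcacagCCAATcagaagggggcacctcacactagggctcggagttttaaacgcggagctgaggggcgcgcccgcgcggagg
A match describes letters in a window and is not evidence of binding in these lungs. The members were known as targets of these elements before the search, so their counts are not an independent finding.

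The first comparison asks how the members differed in sensitized mice from naive mice at each time. At 24, 72 and 96 h all 9 measured members were higher in sensitized mice, at 6 h 8 were, at 2 h 7, at 48 h 5, at 168 h 4 and at 0 h 1 (limma, adjusted p below 0.05 over all genes within each time). No member was called lower at any time, nor at an unadjusted p below 0.05 in limma, while 12.3%, 1.92%, 33.2%, 24.9%, 18.1%, 26.3%, 20.8% and 1.41% of all genes were at 0, 2, 6, 24, 48, 72, 96 and 168 h. Among all 13053 genes, 14.2% were called higher at 0 h, 1.84% at 2 h, 24.6% at 6 h, 22.8% at 24 h, 17.0% at 48 h, 22.2% at 72 h, 21.2% at 96 h and 3.4% at 168 h. Beside these shares, the single call at 0 h is near that background, whereas the 7 of 9 at 2 h stand beside the smallest share of any time. The median difference over the 9 members was 0.12, 0.32, 0.53, 0.77, 0.23, 0.69, 0.62 and 0.31 on the log2 scale at 0, 2, 6, 24, 48, 72, 96 and 168 h. The median over all genes lay between -0.04 and 0.01 at these times.

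**Figure D1:**
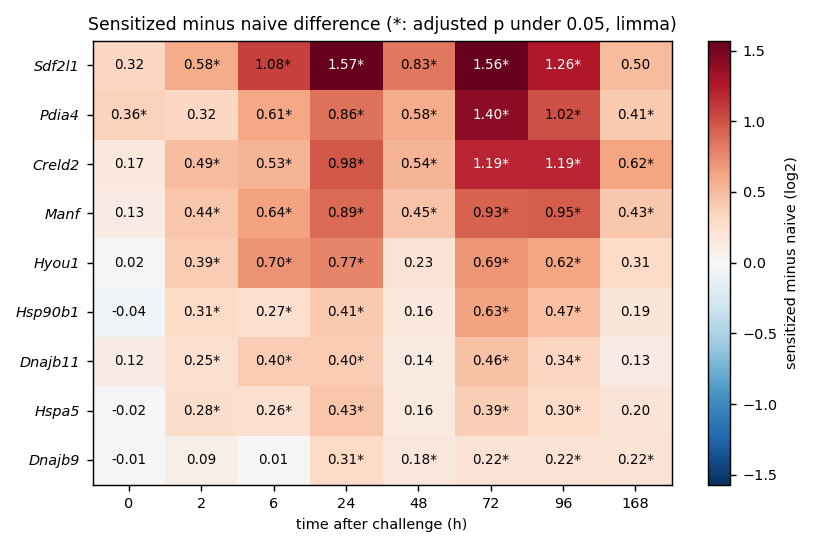
Difference between sensitized and naive mice (log2, colour and number) for each measured member (rows) at each time in hours (columns); an asterisk marks an adjusted p below 0.05 in limma. Sdf2l1, Pdia4, Creld2 and Manf reach the largest differences, and the column for 48 h is paler than those for 24 h and 72 h.

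The spread between mice gives a second view of the same values. Every sensitized mouse lay above every naive mouse for 0 of the 9 members at 0 h, 5 at 2 h, 3 at 6 h, 6 at 24 h, 2 at 48 h, 7 at 72 h, 6 at 96 h and 0 at 168 h. Of all genes, the same held for 1.98% at 0 h, 0.429% at 2 h, 1.5% at 6 h, 13.0% at 24 h, 5.98% at 48 h, 6.92% at 72 h, 6.13% at 96 h and 0.383% at 168 h. At 48 h the 2 members without overlap were Sdf2l1 and Pdia4. Dnajb9 was the only one of the 9 with overlapping arms at all 8 times.

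Hspa5 encodes BiP, the Hsp70 chaperone of the compartment. At 24 h its lowest, median and highest log2 values were 12.99, 13.29 and 13.48 in sensitized mice, against 12.72, 12.86 and 13.06 in naive mice. The arms overlapped slightly, and 1 of the 6 sensitized mice fell inside the naive range. The difference was 0.43 ± 0.07 (SE), a 1.35-fold higher level (adjusted p = 4.14e-07). At 0 h the corresponding values were 12.67, 12.89 and 13.10 in sensitized mice and 12.76, 12.85 and 13.16 in naive mice, so the arms could not be told apart there (difference -0.02 ± 0.07, adjusted p = 0.882). At 2 h all 8 sensitized mice, at 12.99 to 13.25, lay above all 7 naive mice, at 12.74 to 12.94, and the difference was 0.28 ± 0.07 (adjusted p = 0.0093). The 2 probe sets of Hspa5 gave like differences, 0.41 for the other at 24 h. They fell on different sides of the threshold at 48 h in limma over all probe sets of a single symbol. There the other was called, at 0.19 (adjusted p = 0.0232), and the one used was not, at 0.16 (adjusted p = 0.0656).

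Hyou1 encodes the large Hsp70-related protein that exchanges nucleotide on BiP. At 24 h it ran at 11.18, 11.42 and 11.86 (lowest, median, highest) in sensitized mice and 10.39, 10.74 and 11.09 in naive mice, with no overlap. The difference of 0.77 ± 0.13 was a 1.70-fold higher level (adjusted p = 2.31e-07). At 48 h the values were 10.30, 10.72 and 11.12 in sensitized mice and 10.39, 10.57 and 10.63 in naive mice. The lowest sensitized mouse was then below the lowest naive mouse, and the difference of 0.23 ± 0.12 missed the threshold (adjusted p = 0.125). The second Hyou1 probe set, which is dim, gave smaller differences at later times, 0.33 at 72 h against 0.69 for the first, 0.03 against 0.23 at 48 h and -0.09 against 0.31 at 168 h.

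The cochaperones Dnajb9 and Dnajb11 deliver clients to BiP and stimulate its ATPase. Dnajb11 at 72 h ran at 12.22, 12.61 and 12.67 in sensitized mice, against 12.03, 12.08 and 12.14 in naive mice. All 8 sensitized mice were above all 8 naive mice, and the difference was 0.46 ± 0.06 (adjusted p = 3.66e-11). Dnajb9, also known for restraining the stress sensor IRE1 and for service to degradation, had the smallest peak of the 9. Its largest difference was 0.31 ± 0.07 at 24 h (adjusted p = 4.14e-05), with 12.56, 12.84 and 13.00 in sensitized mice and 12.40, 12.55 and 12.74 in naive mice. At 6 h the difference was 0.01 ± 0.06 (adjusted p = 0.946). At 168 h, when most members had smaller differences than at 96 h, Dnajb9 stood at 0.22 at both times.

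Sdf2l1, a soluble partner of the BiP and Dnajb11 system, had the largest difference of any member. At 24 h its lowest, median and highest values were 10.98, 11.30 and 11.73 in sensitized mice, against 9.22, 9.80 and 10.02 in naive mice. The lowest sensitized mouse was well above the highest naive mouse, and the difference of 1.57 ± 0.19 was a 2.97-fold higher level (adjusted p = 1.58e-11). At 48 h the values were 9.70, 10.33 and 10.92 in sensitized mice and 9.23, 9.53 and 9.67 in naive mice. The arms still did not overlap, and the difference was 0.83 ± 0.18 (adjusted p = 0.000154). At 72 h it was 1.56 ± 0.17, with sensitized mice at 9.90 to 11.55 and naive mice at 9.07 to 9.74. At 0 h the 8 sensitized mice spread from 9.23 to 10.65 while the naive mice lay between 9.22 and 9.95, and the difference of 0.32 ± 0.17 did not pass (adjusted p = 0.16).

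Hsp90b1 encodes GRP94, the Hsp90 of the endoplasmic reticulum, which folds integrins and Toll-like receptors among other clients. At 72 h it ran at 12.27, 12.87 and 13.16 in sensitized mice, against 12.05, 12.18 and 12.34 in naive mice. In this group 7 of 8 sensitized mice lay above every naive mouse, and the difference was 0.63 ± 0.08 (1.55-fold, adjusted p = 6.26e-10). At 48 h the sensitized mice spread from 11.90 to 12.71 and the naive mice from 12.12 to 12.28. The difference of 0.16 ± 0.09 did not pass there (adjusted p = 0.139), the lowest sensitized mouse lying under all naive mice.

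Pdia4 encodes a protein disulfide isomerase, which makes and rearranges disulfide bonds. Its largest difference came at 72 h, with 9.31, 10.10 and 10.49 in sensitized mice and 8.38, 8.63 and 8.83 in naive mice. Every sensitized mouse was above every naive mouse, and the difference of 1.40 ± 0.12 was a 2.65-fold higher level (adjusted p = 1.03e-17). Pdia4 was also the only member called at 0 h, at 0.36 ± 0.12 (adjusted p = 0.021). In that group the sensitized mice ran from 8.34 to 9.88 and the naive mice from 8.43 to 8.76, so the lowest sensitized mouse was under every naive mouse. Without the arrays with squamous or muscle genes the call at 0 h was lost (adjusted p = 0.052). At 2 h Pdia4 differed by 0.32 ± 0.13 and did not pass (adjusted p = 0.135).

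Creld2 and Manf encode small secreted or retained proteins that are induced by endoplasmic reticulum stress, and MANF is known to bind BiP. Creld2 at 72 h ran at 11.80, 12.45 and 12.75 in sensitized mice, against 10.96, 11.23 and 11.34 in naive mice. All 8 sensitized mice were above all naive mice, and the difference of 1.19 ± 0.12 was 2.28-fold (adjusted p = 1.33e-14). Manf at 96 h ran at 12.33, 12.58 and 12.79 in sensitized mice and 11.27, 11.51 and 11.93 in naive mice, with a difference of 0.95 ± 0.13 (1.94-fold, adjusted p = 9.45e-10). Both genes were called at 7 of the 8 times. At 168 h they were still higher, Creld2 by 0.62 ± 0.12 (adjusted p = 0.000347) and Manf by 0.43 ± 0.12 (adjusted p = 0.0214), with the arms overlapping for both.

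**Figure D2:**
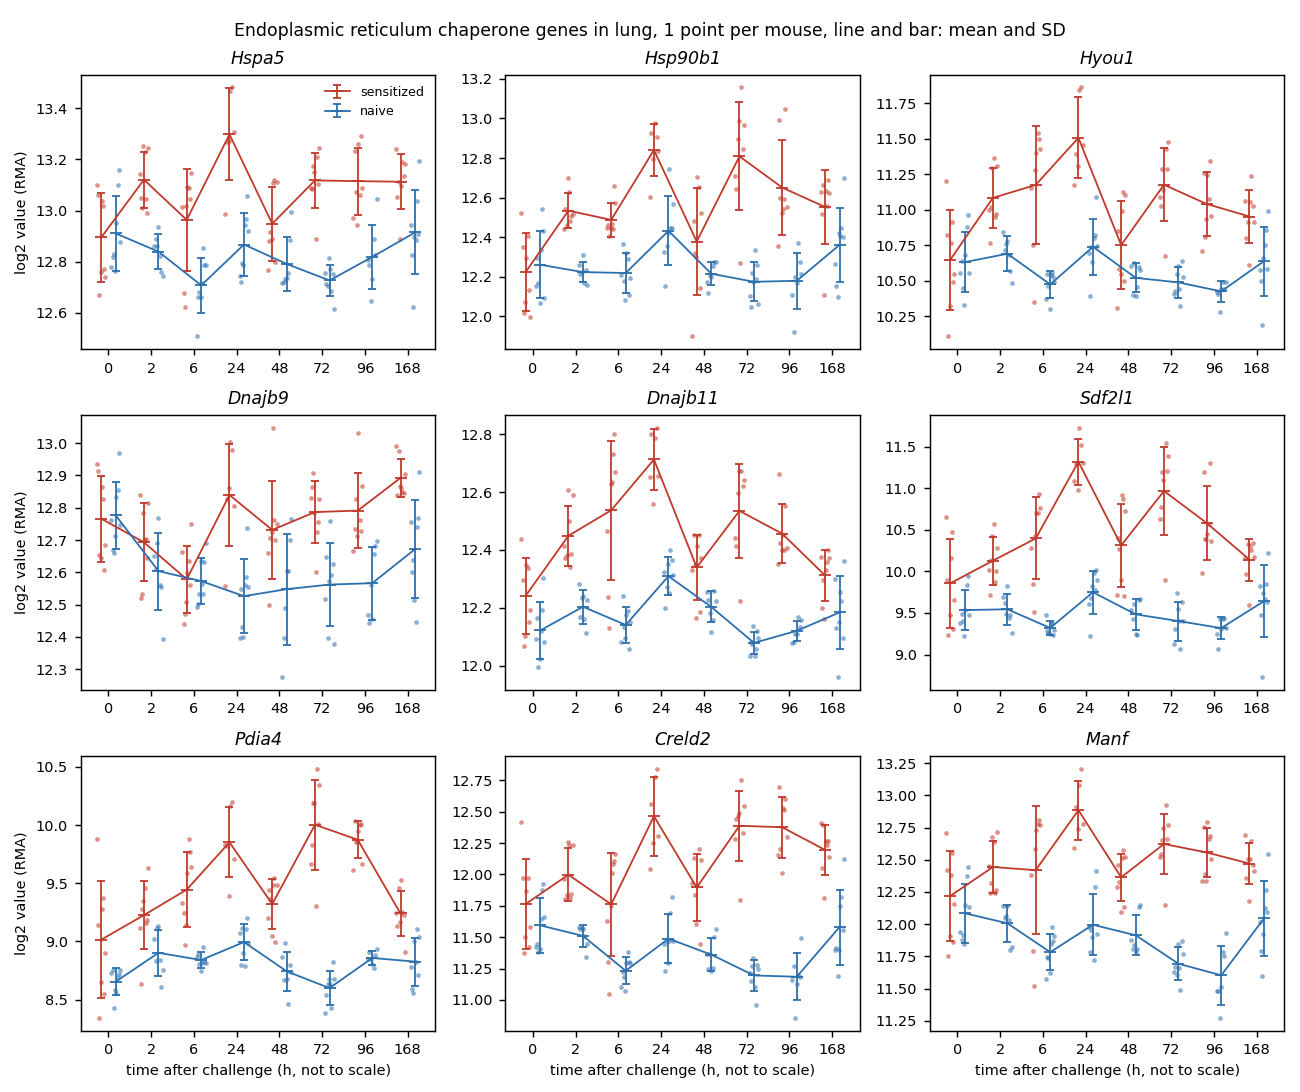
Log2 values (vertical axis) of the 9 measured members in every mouse at each time in hours (horizontal axis, categories evenly spaced), sensitized in red left of naive in blue; points are mice, and lines with bars give the mean and SD. In Sdf2l1 at 24 h all 6 sensitized mice, at 10.98 to 11.73, lie above all 8 naive mice, at 9.22 to 10.02.

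The counts at 0, 2, 48 and 168 h changed when a replicate number was left out of all groups of an arm, which also changes the pooled spread. These omissions gave 2 to 7 calls at 2 h: 2 without sensitized replicate 8, 3 without sensitized replicate 4 or naive replicate 6 or 7, and 4 without sensitized replicate 5 or naive replicate 2 or 3. At 168 h the count was 2 without naive replicate 1, 2 or 3 and 9 when arrays were weighted by quality, and at 48 h it was 8 without sensitized replicate 1. At 0 h it was 0 without sensitized replicate 1 or 6 and 2 without sensitized replicate 3. At 6, 24, 72 and 96 h the counts of 8, 9, 9 and 9 did not change under any of these omissions.

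The second comparison follows the sensitized arm through time. All 9 members were higher in sensitized mice at 24 h than at 6 h, 8 of 9 were lower at 48 h than at 24 h, and 6 of 9 were higher at 72 h than at 48 h. The shares of all genes called the same way in these 3 comparisons were 18.5%, 12.3% and 2.11%. Over the members the median changes were 0.35, -0.52 and 0.43 in the same order. The count at 72 h became 3 if sensitized replicate 4 was left out, 2 if replicate 7 was and 2 if only the sensitized groups were fitted, while the count of 8 at 48 h did not change when any 1 replicate number of an arm was left out. Under such omissions the count of 9 at 24 h over 6 h ran from 7 to 9.

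Sdf2l1 shows the course in full. In sensitized mice its mean ± SD was 9.86 ± 0.53 at 0 h, 10.13 ± 0.29 at 2 h, 10.40 ± 0.49 at 6 h, 11.32 ± 0.28 at 24 h, 10.31 ± 0.50 at 48 h, 10.97 ± 0.53 at 72 h, 10.58 ± 0.45 at 96 h and 10.14 ± 0.25 at 168 h (n = 8, but 6 at 24 h). It was thus high at 24 h, lower at 48 h and higher again at 72 h. The change at 48 h against 24 h was -1.01 ± 0.19 (adjusted p = 4.43e-05) and that at 72 h against 48 h was 0.65 ± 0.17 (adjusted p = 0.016). Dnajb9 was the member not called lower at 48 h, with a change of -0.11. At 72 h the 6 members called were Hsp90b1, Hyou1, Dnajb11, Sdf2l1, Pdia4 and Creld2, with Pdia4 highest at 0.68 ± 0.12 (adjusted p = 0.000143).

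Against the 0 h group of the same arm, 4 members were called higher at 2 h, 5 at 6 h, 8 at 24 h, 0 at 48 h, 8 at 72 h, 8 at 96 h and 3 at 168 h. Over all genes these shares were 14.2%, 21.3%, 18.0%, 1.47%, 12.6%, 8.73% and 2.83%. The count of 0 at 48 h stood beside 2 members at an unadjusted p below 0.05 in limma. The 8 members of 24, 72 and 96 h did not include Dnajb9, whose sensitized mean at 24 h was 12.84 ± 0.16, against 12.77 ± 0.13 at 0 h. Dnajb9 was instead called lower at 6 h, with a change of -0.19 ± 0.06 (adjusted p = 0.00651), where 32.4% of all genes were called lower.

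The third comparison asks whether the difference between the arms itself changed with time. An F test over the 7 changes since 0 h passed for all 9 members, and for 62.5% of all genes. The adjusted p ranged from 1.6e-07 for Pdia4 to 0.00561 for Dnajb9. Taken time by time, the difference was larger than at 0 h for 1 member at 2 h, 6 at 6 h, 8 at 24 h, 0 at 48 h, 8 at 72 h, 7 at 96 h and 0 at 168 h. Over all genes the shares were 2.34%, 10%, 3.39%, 0.0%, 1.48%, 1.34% and 0.965%. At 48 h and 168 h, 3 members each passed at an unadjusted p below 0.05.

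The change of the difference between neighbouring times, a contrast chosen after the data were seen, was less clear than the course of the sensitized arm alone. From 24 to 48 h all 9 differences became smaller, with a median change of -0.28, but 0 of 9 passed in limma, with 6 at an unadjusted p below 0.05 and 1.17% of all genes called lower. Between 48 and 72 h all 9 became larger, by a median of 0.47. Only Pdia4 passed, at 0.83 ± 0.18 (adjusted p = 0.0175), with 8 members at an unadjusted p below 0.05 and 0.0843% of all genes called. Between 96 and 168 h 4 members passed in the direction of a smaller difference, Sdf2l1, Pdia4, Creld2 and Manf, beside 3.25% of all genes.

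The naive arm was followed through time in the same way. The F test over time passed for 5 of 9 members, Hspa5, Dnajb9, Dnajb11, Creld2 and Manf, beside 38.4% of all genes. For Hsp90b1, Hyou1, Sdf2l1 and Pdia4 the adjusted p ran from 0.0744 to 0.278. The count of 5 was 2 without naive replicate 1 and 3 without naive replicate 4 or 6, while 9 passed when only naive groups were fitted and 8 with array weights.

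Most calls against the naive 0 h group were downward. Members called lower numbered 0 at 2 h, 3 at 6 h, 1 at 24 h, 1 at 48 h, 3 at 72 h, 3 at 96 h and 0 at 168 h, and the shares of all genes were 1.44%, 5.11%, 10.3%, 6.26%, 4.11%, 9.68% and 0.192%. At an unadjusted p below 0.05 in limma, 1 member was lower at 2 h and 0 at 168 h. Manf averaged 11.60 ± 0.23 at 96 h (n = 7), against 12.08 ± 0.23 at 0 h (n = 8), a change of -0.48 ± 0.13 (adjusted p = 0.00364). Creld2 was lower as well, with a change of -0.41 ± 0.13 (adjusted p = 0.0145). Dnajb9 was called lower at each time between 6 and 96 h, with changes of -0.20 to -0.25.

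Upward calls against the naive 0 h group came only at 24 h. Dnajb11 was higher by 0.19 ± 0.06 (adjusted p = 0.0104) and Pdia4 by 0.34 ± 0.12 (adjusted p = 0.0361), beside 9.64% of all genes. At 96 h Manf in sensitized mice stood 0.34 ± 0.12 above the 0 h group of that arm (adjusted p = 0.0334), beside the change of -0.48 in naive mice, so both arms entered its difference. For Pdia4 at 96 h the sensitized arm was 0.86 ± 0.12 above its 0 h group (adjusted p = 5.06e-08), and the naive arm was 0.20 above its own without passing.

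The members also moved together from mouse to mouse. Across the 16 group means, the 36 pairings of members had a median Pearson r of 0.909, from 0.467 to 0.969 (Spearman rho 0.532 to 0.991, median 0.894). After each group's mean was removed, the median over all mice was 0.751, from 0.333 to 0.931 for Creld2 with Manf. These are descriptions, and the values of a mouse share 1 RNA sample and 1 array. Pairs of other genes were not computed, so whether such values are particular to the members was not tested.

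Some single mice were the lowest or highest of their group for most members. Sensitized replicate 5 at 72 h was the lowest of its 8 mice for 9 of 9 members, and sensitized replicate 3 at 6 h for 8 of 9. At 0 h sensitized replicate 1 was the highest for 9 of 9. The mouse at 6 h also had the lowest goblet marker mean of its group, 8.25, and its array was among the 9 with squamous or muscle genes. The mouse at 72 h had a goblet mean of 10.55 within a group range of 10.53 to 11.30, and a plasma cell mean of 11.02, the lowest of its group. Without these replicates the counts at 6 h and 72 h stayed at 8 and 9. Among naive mice at 168 h, replicate 8 was the highest for 8 of 9 members and replicate 3 the lowest for 8 of 9. Replicate 8 there had the lowest goblet and plasma cell means of its group, 7.29 and 9.80, and replicate 3 had 7.70 and 10.06.

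By correlation of 16 group means with the average course of the 9 members, the most similar genes were Chid1 (r = 0.977), Pdia6 (0.951), Hdlbp (0.948), Prkcsh (0.940) and Nans (0.933), followed by 1110008P14Rik, Il10rb, Spcs3, Hirip3 and Pmepa1 (0.917). Pdia6 is a further disulfide isomerase, Prkcsh a subunit of the glucosidase that trims N-glycans, and Spcs3 a subunit of the signal peptidase. Chid1 differed by 0.65 at 24 h, 0.36 at 48 h and 0.74 at 72 h between sensitized and naive mice, and Nans, which makes sialic acid, by 0.77, 0.33 and 0.59. These genes share the arrays and groups with the members, and nothing about common control follows from the likeness.

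Markers of other cells moved with the arms and are given beside the members. The shares of all genes called at each time, given with the first comparison, are the background of these counts too. The goblet cell list (15 genes measured, Clca1 and Muc5ac among them) was called higher for 15 of 15 genes at 0, 6, 24, 48, 72 and 96 h, 13 at 168 h and 4 at 2 h. Its mean log2 value per mouse was 10.08 to 11.50 in sensitized mice and 7.41 to 7.92 in naive mice at 0 h, and 10.37 to 11.53 in sensitized mice and 7.46 to 7.93 in naive mice at 48 h. At 2 h it was 7.56 to 10.57 in sensitized mice and 7.24 to 7.96 in naive mice, so the arms overlapped. The list mean differed between sensitized and naive mice by 2.88, 1.04, 2.47, 3.35, 3.43, 3.27, 3.12 and 1.96 at 0, 2, 6, 24, 48, 72, 96 and 168 h. The members' median differences at the same times were 0.12, 0.32, 0.53, 0.77, 0.23, 0.69, 0.62 and 0.31.

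The plasma cell list (16 genes measured) had 8, 1, 13, 13, 12, 13, 13 and 9 genes called higher at 0, 2, 6, 24, 48, 72, 96 and 168 h. Of these 16 genes, Sdc1 was called lower at 0, 24, 48, 72 and 96 h, with a difference of -0.22 ± 0.04 at 24 h. The mean of the 16 plasma cell genes per mouse was 11.02 to 11.92 in sensitized mice and 9.76 to 10.26 in naive mice at 72 h. At 2 h this list mean was 9.79 to 10.68 in sensitized mice and 9.88 to 10.10 in naive mice. The list mean differed by 1.13, 0.99 and 1.57 at 24, 48 and 72 h. At the same 3 times eosinophil markers (5 genes) differed by 1.60, 0.80 and 1.56 and cell cycle genes (8) by 1.69, 1.62 and 1.89. Of the eosinophil genes 4 were called higher at each of these times, and 1 was called lower at 24 h. Neutrophil markers (8 genes) differed by 0.84 at 2 h, with 4 genes called higher, and by -0.53 at 96 h, with 4 called lower. T cell markers (9 genes) differed by 1.11 at 6 h, with 9 called higher, and by 0.88 at 24 h, with 8 called higher. Alveolar macrophage markers (9 genes) differed by 0.25 to 0.56 over the 8 times, with at most 5 called higher and at most 1 called lower.

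Adipocyte markers (6 genes) were lower in sensitized mice, with 5 called at 0 h (-1.81) and 5 at 24 h (-1.38). At 0 h, skeletal muscle markers (10 genes) differed by -1.51, with 3 called lower, and squamous epithelial markers (14 genes) by -1.16, with 2 called lower. Naive replicates 1 and 3 at 0 h were among the arrays with squamous or muscle genes far above the others, which weighs on these means. The squamous medians at 0 h were 6.56 in sensitized and 6.52 in naive mice, with a highest naive value of 11.67. The muscle medians were 6.84 and 7.26, with a highest naive value of 12.65. Club cell markers (7 genes) had 5 called lower and 1 higher at 6 h, and the alveolar type II list 6 called lower and 1 higher. On this array scale no marker is at 0, since background gives positive values. The part of these cells in the members' differences was not tested.

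**Figure D3:**
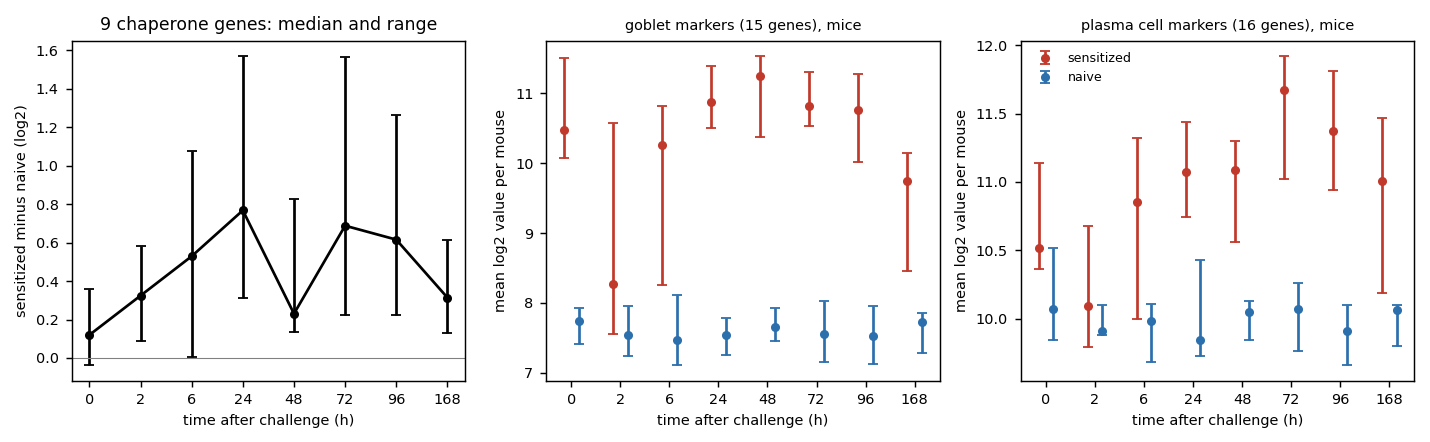
Left, median (point) and range (bar) over the 9 members of the sensitized minus naive difference (log2) by time in hours; middle and right, mean log2 value per mouse of the goblet and plasma cell markers, as median and range over mice, sensitized in red left of naive in blue. The members' median is lower at 48 h (0.23) than at 24 h (0.77) or 72 h (0.69), and the goblet markers of sensitized mice run at 10.50 to 11.39 at 24 h, 10.37 to 11.53 at 48 h and 10.53 to 11.30 at 72 h.

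Leaving out the 9 arrays with squamous or muscle genes gave 0 calls at 0 h, and 8 members higher at 24 h than at 6 h in sensitized mice. The log2 difference between 3 prime and 5 prime actin control probe sets, which reads RNA integrity, differed between sensitized and naive mice by -0.18 at 6 h (adjusted p = 0.0224), by -0.13 at 24 h (adjusted p = 0.0213) and by 0.29 at 168 h (adjusted p = 0.0319; exact two-sided permutation tests over mice, adjusted over 8 times). At 48 h and 72 h the adjusted p was 0.841 and 0.382. The part of RNA quality in the members' differences was not tested.

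Other genes of the secretory pathway were grouped by function to set the members in context, and their counts are calls over all genes in the same fits. At 24 h the list of translocation and N-glycosylation had 22 of 29 genes higher and 1 lower, and the list of transport between endoplasmic reticulum and Golgi 17 of 27 higher and 0 lower (1 lower at an unadjusted p below 0.05 in limma). Protein disulfide isomerases and oxidases had 13 of 20 higher and 1 lower, and genes of endoplasmic reticulum associated degradation 11 of 21 higher and 1 lower. Other chaperones and prolyl isomerases of the compartment had 8 of 24 higher and 3 lower. Chaperones of the cytosol and mitochondria had 2 of 13 higher and 2 lower. Of all genes, 22.8% were called higher and 24.9% lower at 24 h. The share called higher was 33.3% for the other chaperones and 15.4% for those of the cytosol and mitochondria. The median differences of these lists at 24 h were 0.22, 0.15, 0.20, 0.12, 0.08 and 0.08, against 0.77 for the 9 members and -0.02 for all genes.

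**Figure D4:**
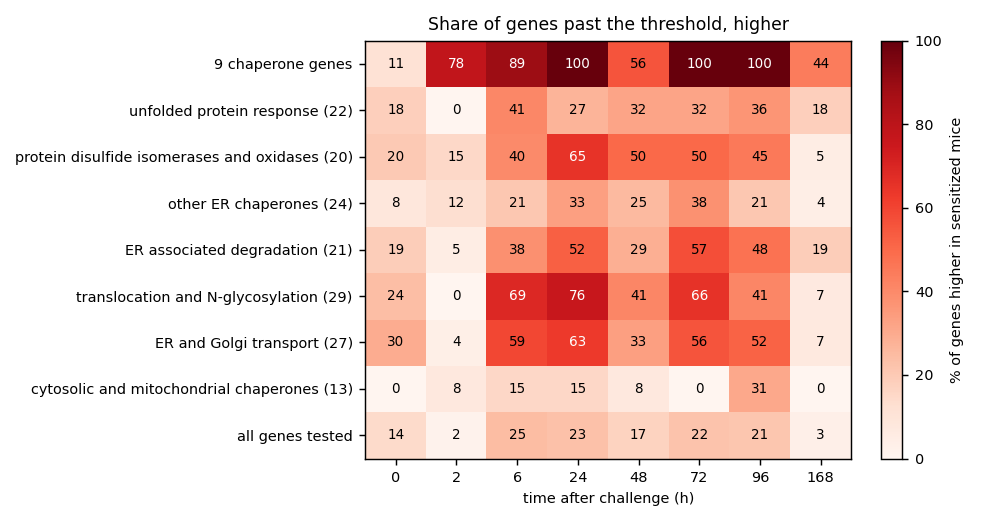
Share of genes (percent, colour and number) called higher in sensitized than in naive mice at each time in hours (columns), for the 9 measured members, 7 lists of related genes with the number measured in parentheses, and all genes tested. At 2 h the members stand at 7 of 9 while the unfolded protein response list stands at 0 of 22 and all genes at 1.84%.

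The list of sensors, factors and targets of the unfolded protein response had calls in both directions, and the members themselves are not in it. At 24 h 6 of 22 genes were higher and 4 lower, near the 22.8% and 24.9% of all genes. At 2 h 0 of 22 passed in limma, with 6 higher at an unadjusted p below 0.05. Of all genes, 1.84% were called higher at 2 h. Xbp1, the factor spliced by IRE1, averaged 12.53 in sensitized mice and 12.10 in naive mice at 24 h, a difference of 0.43 ± 0.08 (adjusted p = 4.19e-06), and differed by 0.36 at 48 h. The array measures its total RNA and not its splicing. Ern2, the IRE1 form of mucous epithelia, differed by 1.33 ± 0.14 at 24 h and 1.53 ± 0.14 at 48 h, and was already higher by 1.25 ± 0.13 at 0 h.

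Creb3l1 and Creb3l4, membrane-bound transcription factors of secretory cells, were higher by 0.57 ± 0.10 and 0.87 ± 0.13 at 24 h. Atf6 itself was lower, with a difference of -0.14 ± 0.05 at 24 h (adjusted p = 0.00963). Ddit3, which encodes the death-linked factor CHOP, differed by 0.01 ± 0.10 at 24 h (adjusted p = 0.953) and by 0.29 ± 0.10 at 2 h (adjusted p = 0.0797). Atf4 differed by 0.09 ± 0.06 at 24 h (adjusted p = 0.242). Creb3l1 and Ern2 are also in the goblet list and Xbp1 in the plasma cell list.

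Among disulfide isomerases, Agr2, which folds mucins, differed by 4.35 ± 0.44 at 24 h, 3.48 ± 0.42 at 48 h and 3.43 ± 0.41 at 72 h, and it belongs to the goblet list. Pdia6 differed by 0.63 ± 0.08, 0.26 ± 0.07 and 0.54 ± 0.07 at these 3 times and so was lower at 48 h than at either neighbour. Erp29 differed by 0.61 ± 0.07 at 24 h and 0.31 ± 0.06 at 48 h. Qsox1, a sulfhydryl oxidase, was higher already at 2 h by 0.33 ± 0.06 (adjusted p = 0.000363).

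In the remaining lists, Mzb1 and Derl3 differed at 72 h by 3.37 ± 0.26 and 3.08 ± 0.21. Edem1, which directs misfolded glycoproteins to degradation, differed by 1.37 ± 0.18 at 24 h and 2.13 ± 0.17 at 72 h, and Edem2 by 0.40 ± 0.07 and 0.60 ± 0.07. Fkbp11, a prolyl isomerase, differed by 1.16 ± 0.13 at 24 h, 0.32 ± 0.13 at 48 h and 0.99 ± 0.12 at 72 h. Mzb1, Derl3 and Fkbp11 are also in the plasma cell list. Sec63, a translocon partner of BiP, was lower at 24 h, with a difference of -0.22 ± 0.06 (adjusted p = 0.0011), and so was Fkbp7 with -0.39 ± 0.06 at 72 h (adjusted p = 2.84e-08).

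Signal peptidase subunits Sec11c and Spcs3 were higher at 24 h by 0.55 ± 0.06 and 0.66 ± 0.07, the oligosaccharyltransferase subunit Rpn1 by 0.40 ± 0.06, and Srp19 of the signal recognition particle by 0.24 ± 0.04. Of the transport genes, the cargo receptor Tmed3 was higher by 0.56 ± 0.05, the coat proteins Sec23b and Sec24d by 0.52 ± 0.08 and 0.53 ± 0.08, and the retrieval receptor Kdelr1 by 0.15 ± 0.04. The ubiquitin ligase Syvn1 was higher by 0.43 ± 0.08. Outside the compartment, the mitochondrial chaperones Hspe1 and Hspa9 were higher at 24 h by 0.48 ± 0.12 and 0.38 ± 0.11. The small heat shock proteins Cryab and Hspb8 were lower, with differences of -0.16 ± 0.04 and -0.26 ± 0.10. At 2 h Hspb1 was the only gene of 13 in that list called, at 0.75 ± 0.23 (adjusted p = 0.0479), beside 1.84% of all genes called higher.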

How the data were processed

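Lung RNA of 62 sensitized and 61 naive mice was measured, 1 per 3 prime expression array, and the sources used here name RMA as the authors' tool, per the submitters' processing notes. The deposited log2 values were used as given, with array medians between 9.32 and 9.44. Precision is limited by how many arrays a group holds. Of 25697 probe sets, 22478 carried 1 gene symbol, 259 several and 2950 none in the platform annotation used; 10 were control probe sets. The probe set of the highest mean stood for each of 13053 genes. With limma 3.58.1 in R 4.3.3, 1 mean per group (16 groups, 107 residual degrees of freedom) was fitted with moderated variances, and p-values were adjusted by Benjamini-Hochberg over all genes within each contrast at 0.05. Mice are separate animals; no batch is given, and the fit was tested on simulated data. Alternatives were the groups in the fit, array weights, a trended and robust prior, the mean over probe sets, quantile normalization, a floor of 8 on group means, arrays with neighbouring tissue (marker mean over 2 above the median of all arrays) and 1 replicate number of an arm. The members, gene lists and tests were chosen with earlier results of these data known. Named genes were the members, up to 4 genes per list by the smallest F-test p, the 10 most similar genes, and genes of lists beside their counts. Promoter sequences are from RefSeq.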

Additional observations from a re-analysis of the deposited data

Results flagged for a closer look

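In 3 of the 144 gene and group combinations, 1 mouse lay apart from the rest by Dixon's criterion, which chance meets in about 1 in 20. Hspa5 was 12.89 in sensitized replicate 5 at 72 h, where the other mice ran from 13.08 to 13.24. Hsp90b1 was 12.11 in sensitized replicate 4 at 168 h, where the others ran from 12.52 to 12.69. Hyou1 was 10.28 in naive replicate 3 at 96 h, with the others at 10.41 to 10.49.

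The difference between sensitized and naive mice changed with time for all 9 members by the F test over changes since 0 h, beside 62.5% of all genes. The adjusted p was 1.6e-07 for Pdia4, 2.32e-07 for Creld2, 4.02e-06 for Sdf2l1, 5.19e-05 for Dnajb11, 5.39e-05 for Hsp90b1, 6.28e-05 for Manf, 0.000203 for Hyou1, 0.00115 for Hspa5 and 0.00561 for Dnajb9 (limma).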

How the results depend on the processing

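Of 52 called member differences, 42 were called under all 7 alternatives and every omission of a replicate number present at that time, and 0 members were called lower in any of them. The count at 0 h was 0 with only the compared groups, with array weights or without the arrays with neighbouring tissue, 2 after quantile normalization, and 0 to 2 without 1 replicate number of an arm. Such omissions gave 2 to 7 at 2 h, 4 to 8 at 48 h and 2 to 6 at 168 h, where array weights gave 9. The sensitized count at 72 h over 48 h was 2 with only the sensitized arm and 2 to 7 under such omissions. The naive time course gave 9 with only naive groups, 8 with array weights and 2 to 5 under such omissions. The differences that changed sign were not called: at 0 h Hspa5 at 0.0001 (mean of probe sets) and 0.0169 (quantile), Dnajb9 at 0.0182 (quantile), Hyou1 at -0.1582 (array weights) and -0.0278 (without neighbouring tissue) and Manf at -0.0348 (array weights). Without 1 replicate number of an arm, the range was -0.0448 to 0.0194 for Hspa5, -0.0793 to 0.0032 for Hsp90b1, -0.0637 to 0.0924 for Hyou1 and -0.0341 to 0.0175 for Dnajb9 at 0 h, and -0.0192 to 0.0252 for Dnajb9 at 6 h. The cause was not tested. The F test of the change since 0 h could not be made with only 2 groups. No paired analysis was possible because the replicate numbers follow accession order and name separate mice.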
